A study of Mus musculus with 4 samples.

Results

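The comparison described here sets a section of mouse brain organoids grown with BMS753, a synthetic agonist of retinoic acid receptor alpha, against a section of organoids grown with vitamin A. A gene was taken in where it was listed in both sections and reached at least 5 ppm of the signal of either. Of 22218 genes listed in any section of the spatial data, 20662 were listed in both of these and 15676 met that level. The sections hold 552 spots (VitaminA) and 469 spots (BMS753) of 1979 spots in the 4 sections of the series. At the edge of the rule, Gm6277 stood just inside at 5.00 ppm in VitaminA and 2.41 ppm in BMS753, and Grin3b just outside at 5.00 and 1.84 ppm.

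All organoids were grown from mouse embryonic stem cells of CARLIN/Cas9 genotype, a lineage-barcoding line with Cas9, so both sections carry these alleles. Organoids matured in medium with B27 lacking vitamin A and, from day 9, received vitamin A through 2% of the complete B27, or a ligand, here BMS753 at 1 µM. The protocol in the labels is one text for every group, and it does not settle whether the ligand media also held B27 with vitamin A, so BMS753 in place of vitamin A and BMS753 added to it cannot be told apart. The dose of vitamin A itself is not given, and the tissue was taken at 3 months. The other sections of the series, shown beside these only for reference, received all-trans retinoic acid (ATRA) at 1 µM or BMS961 with BMS641, agonists of receptors gamma and beta, at 0.1 µM. Several organoids were frozen in each mold, and the cryosection was laid on a barcoded poly-T array that records the position of captured RNA. Each group has 1 section, so no difference was tested, there is no replicate error, and every statement below compares these 2 sections and not the treatments in general.

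Vitamin A, retinol, has no action on the receptors until cells convert it. Retinol dehydrogenases oxidise it to retinal, the ALDH1A enzymes oxidise retinal to retinoic acid, and the CYP26 enzymes degrade the acid, while RBP and CRABP proteins carry these molecules. Retinoic acid binds receptors alpha, beta or gamma (Rara, Rarb, Rarg), which pair with retinoid X receptors (Rxra, Rxrb, Rxrg) on DNA repeats in target genes. In the developing nervous system the pathway is known for setting hindbrain and spinal cord identity and for promoting neuronal differentiation. A synthetic agonist such as BMS753 acts on its receptor without the oxidation steps.

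Promoter sequence is shown for the 3 listed retinoid genes that held an exact direct repeat of the half-sites below. The search used the half-sites AGGTCA, the variant AGTTCA, the variant GGGTCA and the variant GGTTCA on both strands, in direct repeats with a spacing of 1, 2 or 5 bases, in RefSeq promoters of assembly GRCm38.p6 that run from 250 bases before to 50 bases after a gene start. Of 57 listed retinoid genes, 43 had a promoter in that table. The Rarb window lies at chr14:16575427-16575726 on the minus strand and holds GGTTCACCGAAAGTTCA, a repeat with spacing 5, from -53 to -37 relative to the gene start. The Cyp26a1 window lies at chr19:37697558-37697857 on the plus strand, with a repeat of spacing 5 on the opposite strand from -32 to -16. The Bco1 window lies at chr8:117095615-117095914 on the plus strand, with a repeat of spacing 1 on the opposite strand from -56 to -44. Among 32851 promoters of the same length, spacing 5 was found in 0.0974%, spacing 1 in 0.222% and spacing 2, found in no listed gene, in 0.268%. Capitals mark the half-sites as they read on the gene's own strand, and a match is a description of letters, not of binding.
Rarb: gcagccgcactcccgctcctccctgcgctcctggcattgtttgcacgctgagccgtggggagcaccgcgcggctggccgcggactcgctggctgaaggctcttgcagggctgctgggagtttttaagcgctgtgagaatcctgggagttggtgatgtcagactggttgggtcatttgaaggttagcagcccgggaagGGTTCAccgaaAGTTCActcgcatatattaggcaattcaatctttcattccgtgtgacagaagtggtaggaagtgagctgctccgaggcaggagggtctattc
Cyp26a1: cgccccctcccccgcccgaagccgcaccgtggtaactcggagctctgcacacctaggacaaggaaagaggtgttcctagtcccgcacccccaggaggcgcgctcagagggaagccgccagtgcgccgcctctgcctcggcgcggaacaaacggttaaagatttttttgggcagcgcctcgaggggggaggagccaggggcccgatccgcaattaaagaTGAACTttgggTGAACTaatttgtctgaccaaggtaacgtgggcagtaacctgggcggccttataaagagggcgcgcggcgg
Bco1: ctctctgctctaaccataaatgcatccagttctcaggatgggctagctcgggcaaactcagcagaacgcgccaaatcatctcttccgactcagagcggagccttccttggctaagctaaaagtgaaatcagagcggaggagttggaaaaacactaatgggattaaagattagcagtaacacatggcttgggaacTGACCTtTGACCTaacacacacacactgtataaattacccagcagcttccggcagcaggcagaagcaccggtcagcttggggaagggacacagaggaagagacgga

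Within a section, the sorted values of any spot equal those of any other up to a multiplier, as quantile normalisation leaves them, and they are whole multiples of the smallest. From these the total behind a section could be computed, 7254611 counts for VitaminA (13142 per spot) and 4318400 for BMS753 (9208 per spot). Equal counts within a spot had been split by the order of genes in the file. The rank of a gene's tie class within a spot was therefore read back as its count in that spot. These recovered counts hold 84.6% of the VitaminA total and 83.9% of the BMS753 total, since the counts of the most abundant genes are understated by ranks. Whether a count is a read or a molecule is not given in the sources used here, so the 95% exact Poisson intervals below cover counting error only.

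The splitting of ties bears on every deposited level. Over 10 equal bins of the gene order, the median deposited level ran from 6.02 to 36.8 ppm in VitaminA and from 7.11 to 65.1 ppm in BMS753. Recovered counts, scaled to the total of each section and given as cpm, had medians that ran from 12.3 to 7.72 and from 15.7 to 9.49 over the same bins. The ratio of BMS753 to VitaminA followed the order too, with median log2 values between -0.33 and -0.21 in the first 7 bins and of 0.18, 0.53 and 0.53 in the last 3, against values between -0.04 and 0.09 on counts. All log2 ratios here are BMS753 over VitaminA with a pseudocount of 1, minus the median over the 15676 genes, which was 0.31 for levels and 0.15 for counts. A gene is called higher or lower with BMS753 where this relative log2 ratio is at or past 1 or -1 on both scales, a rule chosen after the data were seen. In the text, a pair of relative log2 ratios gives the deposited scale first and counts second.

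**Figure D1:**
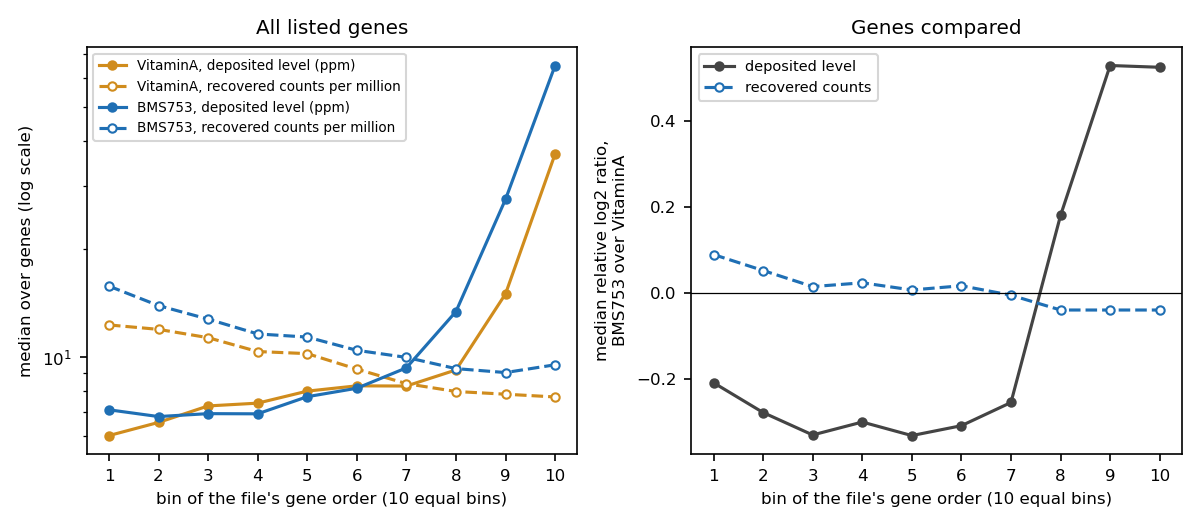
The left panel plots, for each of 10 bins of the gene order of the files, the median deposited level (ppm, filled points) and the median of recovered cpm (open points) on a log axis for the VitaminA and BMS753 sections. The right panel plots the median relative log2 ratio of BMS753 over VitaminA in the same bins, which reaches 0.53 in the last bins on the deposited scale and stays between -0.04 and 0.09 on counts.

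Both sections are deep for long genes and shallow for short, abundant ones. Across genes, which are not replicates, the Spearman correlation of genomic span with recovered counts was 0.833 in VitaminA and 0.834 in BMS753. The beta actin gene Actb had 33 and 8 counts and Gapdh 64 and 27, whereas Cntnap2, a long synaptic adhesion gene, had 9454 and 3853. Levels of different genes are therefore not compared with each other. In bulk spots, fewer cells of a type and less RNA per cell cannot be told apart.

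On both scales, 904 genes (5.77%) were higher with BMS753 and 1502 (9.58%) were lower, together 15.3% of the genes compared. These shares are the background for every list count below, and no list was tested against them. The deposited scale alone gave 1421 higher (9.06%) and 2326 lower (14.8%), and counts alone 1375 (8.77%) and 1998 (12.7%). Of the calls on the deposited scale, 211 higher genes and 2 lower genes had the opposite sign on counts. Without centring on the median gene, the deposited scale gave 2778 higher and 1572 lower, so the balance of the directions depends on the centring. Each section was cut into 4 quadrants of spots to show its inner spread. The quadrants of one section did not overlap those of the other, on both scales, for 846 of the 904 higher genes (93.6%), for 1329 of the 1502 lower genes (88.5%) and for 4774 of all 15676 genes (30.5%). Quadrants belong to one section and are no replicates.

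The share of spots in which called genes were found was drawn from the same spots as the calls, so it is no separate evidence. The lower genes had a median share of spots above the lowest class of values of 43.0% in VitaminA and 9.59% in BMS753. The higher genes had medians of 25.2% of spots in BMS753 and 9.78% in VitaminA. Over all genes compared, the medians were 19.4% in VitaminA, the deeper section per spot, and 15.1% in BMS753. With every spot thinned at random to 5000 recovered counts, which left out 39 shallower VitaminA spots and 187 of BMS753, the medians were 24.2% and 6.74% for the lower genes, 4.68% and 19.1% for the higher genes and 9.36% and 10.6% for all genes, VitaminA first. Shares for single genes below are not thinned. Among lower genes, 683 were found in at least 50% of VitaminA spots, and 95 of these in under 10% of BMS753 spots. Among higher genes, 119 were found in at least 50% of BMS753 spots, and 2 of these in under 10% of VitaminA spots.

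**Figure D2:**
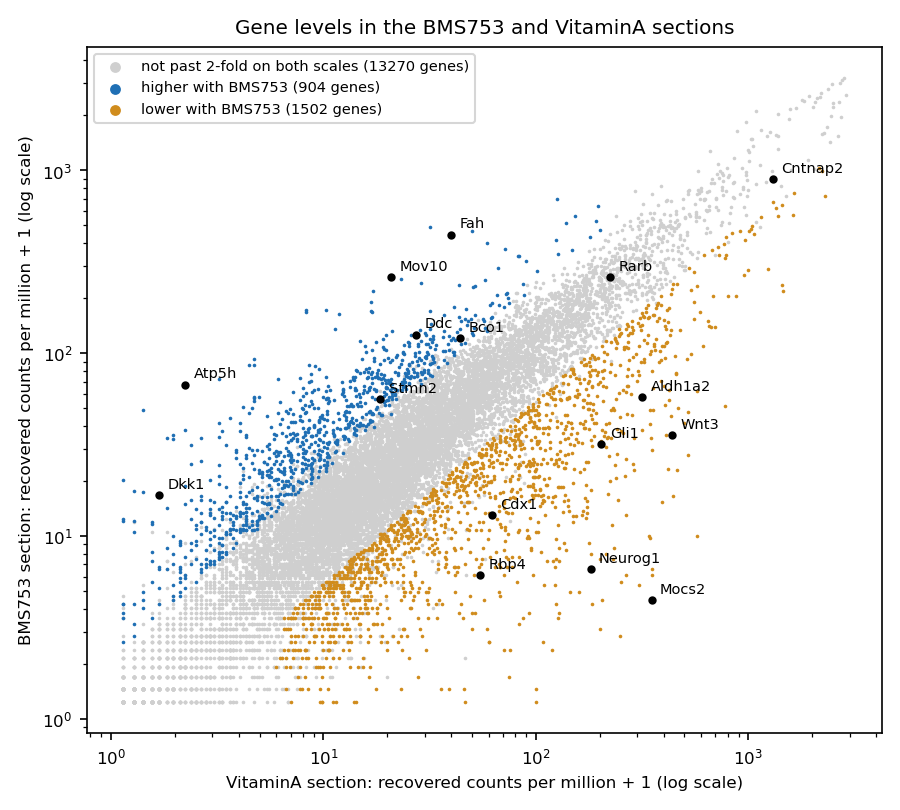
Each point is 1 of the 15676 genes, at its recovered cpm plus 1 in the VitaminA section (horizontal, log axis) and the BMS753 section (vertical, log axis). The 904 genes higher with BMS753 on both scales are blue, the 1502 lower genes are orange, and named genes are black, with Mocs2, Neurog1, Wnt3 and Aldh1a2 far below the bulk and Atp5h, Fah and Mov10 far above it.

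The receptor that BMS753 activates was present in both sections and was not called. Rara stood at 72.2 ppm in VitaminA and 54.2 ppm in BMS753, or 88.6 and 78.0 recovered cpm. Its quadrants spanned 78.4 to 107 and 68.4 to 83.3 cpm and overlapped on counts. On the deposited scale they spanned 60.6 to 97.6 and 49.1 to 58.4 ppm and did not overlap. The relative log2 ratios of Rara were -0.72 and -0.33. Rarb, which is itself a classical target of the receptors, stood at 178 and 187 ppm and at 223 and 259 cpm. Its relative log2 ratios of -0.24 and 0.06 lay on either side of 0, and the gene was not called. Rarg stood at 53.6 and 34.2 ppm, with ratios of -0.94 and -0.40.

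Of the retinoid X receptors, which serve as partners of all 3, Rxrb was lower and the others were not called, so 1 of 6 receptors was lower beside 9.58% of all genes. Rxrb had 86 counts (95% interval 68.8 to 106) in VitaminA and 14 counts (7.65 to 23.5) in BMS753, with relative log2 ratios of -2.39 and -1.75. Rxra stood at 65.1 and 58.6 cpm, and Rxrg at 18.6 and 21.8. The 6 receptors together summed to 489 cpm in VitaminA and 490.0 in BMS753, a plain sum of counts without centring. Their median relative log2 ratio was -0.63 on the deposited scale and -0.32 on counts.

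Among the enzymes of retinoid synthesis, the main difference was in Aldh1a2, the retinal dehydrogenase of the embryonic trunk and of meninges. It stood at 296 ppm in VitaminA, 41.1 ppm in BMS753, 16.2 ppm in ATRA and 28.5 ppm in BMS961+BMS641. VitaminA was thus high and the 3 sections given receptor ligands were low. The VitaminA section held 2291 counts (2198 to 2387) of it and the BMS753 section 243 (213 to 276). It was above the lowest class in 94.0% of VitaminA spots and 35.0% of BMS753 spots, and its relative log2 ratios were -3.12 and -2.62. Quadrants ran from 293 to 327 cpm in VitaminA and from 47.7 to 65.6 in BMS753, with no overlap.

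The other ALDH1A enzymes were not called. Aldh1a1 had 20.5 and 28.3 cpm and ratios of -0.31 and 0.29, and Aldh1a3 had 30.7 and 21.5 with ratios of -0.60 and -0.65. Rdh10, the dehydrogenase that makes retinal from retinol, stood at 21.2 and 14.4 cpm, with ratios of -0.77 and -0.69. Dhrs3, which reduces retinal back to retinol, was past 2-fold on the deposited scale only, with ratios of -1.46 and -0.62. Adh5, an alcohol dehydrogenase of wide expression, was lower with 163 and 45 counts and ratios of -1.38 and -1.19.

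Bco1, which cleaves beta-carotene into retinal, was the one gene of this list that was higher. It stood at 27.3 ppm in VitaminA, 79.4 in BMS753, 46.0 in ATRA and 36.0 in BMS961+BMS641. BMS753 was thus the highest of the 4 sections. The counts were 311 (277 to 348) and 519 (475 to 566), with relative log2 ratios of 1.20 and 1.31. Over the 13 synthesis and reduction genes compared, 1 was higher and 2 were lower, and the median ratio was -0.60 on the deposited scale and -0.62 on counts, against 0 over all genes. The background, over all genes compared, was 5.77% higher and 9.58% lower.

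Carriers of retinoids differed gene by gene. Of 7 carrier and uptake genes compared, 3 were lower and none was higher, beside 9.58% and 5.77% of all genes. Rbp4, the plasma carrier of retinol, stood at 36.7 ppm in VitaminA, 2.10 in BMS753, 1.71 in ATRA and 0.537 in BMS961+BMS641. It was found in 46.0% of VitaminA spots and in 4.26% of BMS753 spots. Its counts were 388 (350.3 to 429) and 22 (13.8 to 33.3), with ratios of -3.91 and -3.31.

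Rbp7, an intracellular retinol carrier, had 73 and 17 counts and ratios of -1.40 and -1.32. Crabp1, which binds retinoic acid in the cytoplasm, had 16.0 cpm in VitaminA, 7.87 in BMS753, 20.7 in ATRA and 209 in BMS961+BMS641. BMS753 was its lowest section and the gamma and beta pair its highest. Crabp1 quadrants overlapped on counts between VitaminA (9.55 to 21.0) and BMS753 (4.86 to 10.7). They did not on the deposited scale, with 5.47 to 12.6 and 0.419 to 3.30 ppm. Stra6, the membrane receptor for the plasma carrier, was not called, with ratios of 0.07 and 0.18.

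The breakdown enzymes stood lower or level with BMS753. Cyp26b1 stood at 35.1 and 18.5 ppm and had 235 counts (206 to 267) against 68 (52.8 to 86.2), with ratios of -1.20 and -1.15, which made it lower. Its level in the other sections was 16.1 ppm in ATRA and 27.3 ppm in BMS961+BMS641. Cyp26c1 had 66 and 27 counts and ratios of 0.09 and -0.63. Cyp26a1, the classical induced enzyme and the owner of the second repeat shown above, was below the 5 ppm filter in both sections, with 29 and 9 counts.

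Known targets of retinoic acid held calls in both directions, near the shares over all genes. Of 18 compared, 1 was higher and 2 were lower, beside 5.77% and 9.58% of all genes. The median ratio was -0.44 on the deposited scale and 0.06 on counts. Tgm2, a transglutaminase induced by retinoic acid in many cells, was the higher one, at 16.5 ppm in VitaminA and 43.4 ppm in BMS753, with counts of 106 and 159. Its level was 10.6 ppm in ATRA and 6.47 ppm in BMS961+BMS641, so BMS753 was again the highest section.

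Cdx1, a caudal homeobox factor, was lower, with 444 counts (404 to 487) in VitaminA and 52 (38.8 to 68.2) in BMS753 and ratios of -2.68 and -2.41. It stood at 55.5 ppm in VitaminA, 9.90 in BMS753, 5.17 in ATRA and 3.45 in BMS961+BMS641, so VitaminA stood above all 3 others. Bhlhe40, a basic helix-loop-helix repressor, had 121 and 25 counts and ratios of -1.88 and -1.53. Meis1 and Meis2, homeobox cofactors of Hox proteins, had ratios of -0.43 and -0.07 and of -0.59 and -0.18, and Hoxa3 had 0.23 and 0.32.

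Of 15 coregulators that nuclear receptors recruit, 1 was lower and none was higher. That gene was Ncoa3, a coactivator, at 139 ppm in VitaminA, 51.9 in BMS753, 51.9 in ATRA and 93.9 in BMS961+BMS641. Its counts were 1118 and 312, and its ratios were -1.72 and -1.24. The corepressor Ncor1 had ratios of -0.34 and -0.01.

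**Figure D3:**
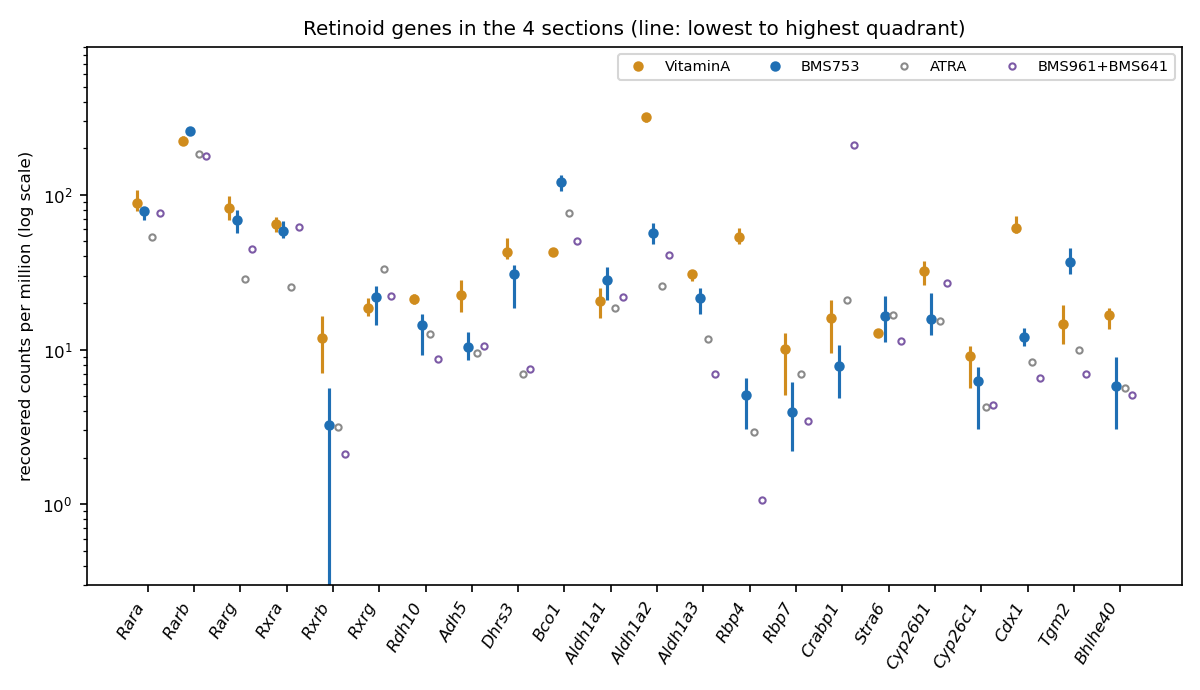
Recovered cpm (log axis) of 22 retinoid genes in the 4 sections, with filled points for VitaminA and BMS753, open points for ATRA and BMS961+BMS641, and lines from the lowest to the highest quadrant of the first 2 (a quadrant at 0 is drawn to the foot of the axis). Aldh1a2, Rbp4 and Cdx1 show VitaminA above the other 3 sections, and Bco1 and Tgm2 show BMS753 above them.

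Positional genes followed next. None of the 5 compared Hox genes of groups 1 to 4 and none of the 13 of groups 5 to 13 was called. Hoxd3 had 76.5 and 54.6 cpm with ratios of -0.90 and -0.63, and Hoxa3 had 31.8 and 44.7. Hoxb4, also a listed target of retinoic acid, had 106 and 13 counts and was past 2-fold on counts only, with ratios of -0.95 and -2.11, and Hoxb3 was past it on the deposited scale only, with -1.05 and -0.40. Among posterior members, Hoxb8 had ratios of -1.42 and -0.83 and Hoxd11 of -1.85 and -0.94, past 2-fold on the deposited scale only. Hoxc6, Hoxc8 and Hoxd9 had 53 and 4, 71 and 8 and 42 and 2 counts and were past 2-fold on counts only.

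Of 11 forebrain patterning factors compared, 3 were lower and none was higher, beside 9.58% and 5.77% of all genes. Their median ratio was -1.29 on the deposited scale and -0.94 on counts. Among the lower ones were Dlx5, a factor of ventral forebrain interneurons, with 92 and 26 counts, and Sp8, a zinc finger factor of the rostral forebrain, with 154 and 47. Lhx2, a LIM homeobox factor of the cortical field, was near the line with 59.5 and 33.1 cpm and ratios of -1.36 and -0.98. Lmx1a, of the roof plate and midbrain floor, had ratios of -0.12 and 0.19.

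Of 13 factors of the midbrain, hindbrain and cord, 3 were lower and none was higher, beside the same shares of 9.58% and 5.77%. En1, which marks the midbrain and anterior hindbrain, had 93.0 cpm in VitaminA, 23.2 in BMS753, 4.64 in ATRA and 4.92 in BMS961+BMS641. BMS753 thus lay between VitaminA and the other ligand sections. Pax7, a dorsal neural tube factor, had 301 and 145 cpm with ratios of -1.64 and -1.20. Egr2, a factor of hindbrain segments, had 102 and 20 counts and ratios of -2.04 and -1.57. Pax2, Pax3 and Pax5, also of this list, were not called, with ratios of -0.37 and 0.16, of -0.31 and 0.13 and of 0.14 and 0.33.

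A single proneural factor was called of 6 compared, and the list summed to 238 cpm in VitaminA and 48.4 in BMS753. Without Neurog1 the sums were 57.6 and 42.8 cpm, so most of the gap lay in that gene. Neurog1, which starts sensory and dorsal neurogenesis, stood at 150.4 ppm in VitaminA, 3.30 in BMS753, 0.859 in ATRA and 1.95 in BMS961+BMS641. VitaminA was the only high section, with the gene in 82.6% of its spots and in 5.12% of BMS753 spots. The counts were 1305 (1235 to 1378) and 24 (15.4 to 35.7), with ratios of -5.45 and -4.94. Its relative Neurog2 had 41 and 22 counts, Neurod2 had 118 and 88, and neither was called.

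Progenitor genes were mostly level. Of 9 compared, 1 was lower, Sox3, an early neural factor, with 99 and 21 counts and ratios of -1.80 and -1.47. Msi2, an RNA-binding protein of neural stem cells, had 346 and 465 cpm with ratios of 0.01 and 0.27, and Pax6 had ratios of -0.42 and -0.06. Cdh2, the cadherin of neuroepithelium, had 384 and 414 counts and ratios of 0.39 and 0.69. The list's median ratio was -0.04 on the deposited scale and -0.02 on counts.

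Neuronal genes differed gene by gene rather than together. Of 18 pan-neuronal genes compared, 1 was higher and 3 were lower. The higher gene was Stmn2, a microtubule regulator of growing axons, at 14.3 ppm in VitaminA, 40.4 in BMS753, 12.7 in ATRA and 533 in BMS961+BMS641. BMS753 was above VitaminA and ATRA and below the pair. Its counts were 127 and 239, with ratios of 1.13 and 1.45.

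The lower neuronal genes were Elavl4, an RNA-binding protein of differentiating neurons, Snap25, part of the release machinery, and Gap43, a growth cone protein. Elavl4 had 142 and 56.7 cpm with ratios of -2.23 and -1.47. Snap25 had 54.2 and 26.2 with ratios of -1.67 and -1.18, and Gap43 82.8 and 44.0 with ratios of -1.30 and -1.05. Tubb3, the neuronal tubulin, and Map2, a dendritic microtubule protein, were not called, with ratios of 0.41 and 0.35 and of -0.56 and -0.25. The list as a whole summed to 1902 cpm in VitaminA (quadrants 1871 to 1924) and 2213 in BMS753 (2148 to 2291), so markers of neurons were found in both sections. The list's median ratio, however, was -0.53 on the deposited scale and -0.18 on counts.

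Genes of transmitter systems held some of the clearer contrasts. Ddc, the decarboxylase that completes dopamine and serotonin, stood at 12.9 ppm in VitaminA, 87.8 in BMS753, 9.05 in ATRA and 6.49 in BMS961+BMS641. BMS753 was the only high section. Counts were 191 (165 to 220.1) and 541 (496 to 589), the gene was found in 29.7% and 60.3% of spots, and its ratios were 2.37 and 2.05. Slc6a3, the dopamine transporter, was also higher, with 77 and 133 counts and ratios of 1.46 and 1.30.

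Other dopaminergic genes were lower. Drd2, a dopamine receptor, had 180.4 cpm in VitaminA and 32.7 in BMS753, with ratios of -2.30 and -2.58. Nr4a2, a nuclear receptor needed by midbrain dopamine neurons, had 108 and 38.0 with ratios of -1.70 and -1.63. Th, which starts dopamine synthesis, had 68 and 101 counts and was past 2-fold on counts only, with ratios of 0.62 and 1.08. Over the 12 dopaminergic genes compared, 2 were higher and 3 lower, En1 among them.

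In the serotonergic list, 2 genes were higher and 1 lower of 12. Htr2a, a serotonin receptor, had 26.1 cpm in VitaminA, 96.1 in BMS753, 29.2 in ATRA and 30.2 in BMS961+BMS641, which placed BMS753 above the rest. Tph1, a tryptophan hydroxylase, had 124 and 38.4, with ratios of -2.06 and -1.82. Tph2, the neuronal form of that enzyme, had 1091 and 430 counts and ratios of -1.01 and -0.74, and the serotonin transporter Slc6a4 had 0.25 and 0.46.

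Of 14 GABAergic genes compared, 1 was higher and 3 were lower. Lhx6, a factor of ventral forebrain interneurons, was lower at 104 and 29.2 cpm with ratios of -2.49 and -1.95. Slc32a1, the vesicular GABA transporter, had 101 and 8 counts and ratios of -2.18 and -2.54, and Dlx5 was the other lower member. Gad1 and Gad2, which make GABA, had ratios of 0.58 and 0.82 and of -0.65 and -0.59, and Reln, an interneuron glycoprotein, 0.98 and 1.08.

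Glutamatergic and cholinergic genes were nearly without calls. Of 19 glutamatergic genes compared only Grin1, the obligate NMDA receptor subunit, was called, with 191 and 39 counts and ratios of -2.35 and -1.60. Cux2, an upper-layer cortical factor, had 218 and 408 cpm and ratios of 0.54 and 0.75, and Grin2b had -0.27 and -0.05. Chat, which makes acetylcholine, had 45.4 and 100.3 cpm, with ratios of 0.58 and 0.97, near the line on counts only.

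Among synapse genes, Sv2a, a synaptic vesicle glycoprotein, was higher at 26.6 and 89.8 cpm with ratios of 1.37 and 1.57. It and Snap25 were the called members of 17 release genes. None of 17 adhesion genes was called, with Cntnap2 at 1303 and 892 cpm and Ptprd at 756 and 941. Scn2a, a sodium channel of excitatory neurons, was the called member of 21 ion channel genes, with 292 and 433 counts and ratios of 1.04 and 1.14.

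Axon guidance genes held 3 lower members of 25 and none higher, beside 9.58% lower and 5.77% higher over all genes. Epha5, an ephrin receptor, had 306 and 108 cpm with ratios of -1.90 and -1.64. Sema5a had 385 and 205, and Sema6d, also a semaphorin, 671 and 364, with ratios of -1.56 and -1.06 and of -1.41 and -1.03. Dcc and Robo1, guidance receptors, were not called, with ratios of 0.13 and 0.10 and of -0.59 and -0.18.

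Glial markers were called in both lineages, and the difference between the lists was not tested. Of 15 astroglial genes compared, 1 was lower and none was higher, beside 9.58% and 5.77% of all genes. The lower gene was the water channel Aqp4, with 204 and 54 counts and ratios of -1.89 and -1.26. Slc1a3, a glial glutamate transporter, had 38.6 and 86.1 cpm, with ratios of 0.71 and 0.98. Gfap, the astrocyte filament, was below the 5 ppm filter with 39 and 24 counts. Nfia, a gliogenic factor, had ratios of 0.21 and 0.37. Nfib, of the same family, leaned the opposite way at -1.62 and -0.96, past 2-fold on the deposited scale only.

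Of 17 oligodendrocyte lineage genes compared, 5 were lower and none was higher, beside 9.58% and 5.77% of all genes. Mbp, a myelin protein, had 163 cpm in VitaminA, 88.5 in BMS753, 85.4 in ATRA and 59.1 in BMS961+BMS641. Cspg4, a proteoglycan of precursors, had 59.0 and 23.2, and Ugt8a, which makes a myelin lipid, 70.9 and 33.3. Enpp6, of newly formed oligodendrocytes, had ratios of -1.56 and -1.12, and Sox10, a lineage factor shared with neural crest, -2.29 and -1.46. Cldn11, of the myelin sheath, leaned the opposite way at 0.90 and 1.26, and the list's median was -0.27 on the deposited scale and -0.03 on counts.

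Microglial markers were present without a call among 10 compared, with 238 cpm in VitaminA and 321 in BMS753. Choroid plexus and ependymal genes summed to 1357 and 1357, and 1 of 15 was lower, the axonemal dynein Dnah9, with 282 and 127. Reactive astroglial genes held no call among 9, with Osmr, a cytokine receptor, at 21.2 cpm in VitaminA, 47.9 in BMS753 and 835 in ATRA.

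Markers of cells outside the nervous system were found in both sections, and their part in the differences above was not tested. Endothelial and mural genes summed to 1692 cpm in VitaminA (quadrants 1638 to 1739) and 1137 in BMS753 (1073 to 1199.9). A gap of that size lay in Flt1 alone, a receptor for vascular growth factor, at 802 and 206 cpm with ratios of -1.94 and -2.11. Abcc9, a channel subunit of pericytes, was also lower, at 196 and 66.5. Pecam1 and Cdh5, which define endothelium, were not called, with 454 and 414 and 95 and 87 counts and ratios of 0.20 and 0.45 and of 0.23 and 0.43.

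Mesenchymal and matrix genes summed to 1224 (1184 to 1270.0) and 743 (726 to 753) cpm, with 4 lower and 2 higher of 18. A gap of that size lay in Col5a1 and Lum together. Col5a1, a fibrillar collagen chain, had 552 cpm in VitaminA, 153 in BMS753, 80.3 in ATRA and 664 in BMS961+BMS641. VitaminA and the pair were high for it, and BMS753 and ATRA were low. Lum, a matrix proteoglycan, had 136 and 22.7, and Thy1, a surface protein shared with neurons, 40.7 and 3.94. Foxc1, a meningeal and mesenchymal factor, had 45 and 6 counts.

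The higher members were Col6a3, a microfibrillar collagen chain, at 31.7 and 118 cpm, and Prrx1, a limb and craniofacial mesenchyme factor, with 129 and 195 counts. Collagens of the common fibroblast kind were not called, with Col1a1 at 0.63 and -0.28 and Col1a2 at 0.50 and 0.98. Muscle genes summed to 962 and 1332 cpm. Acta2, smooth muscle actin, was lower with 682 counts (632 to 735) against 33 (22.7 to 46.3), and Myh3, embryonic myosin, was higher with 331 and 486.

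Neural crest and melanocyte genes had a median ratio of -1.30 on the deposited scale and -0.94 on counts, with 4 of 11 lower and 1 higher. Over all genes compared, 9.58% were lower and 5.77% higher. Mitf, the factor of pigment cells, had 399 cpm in VitaminA, 151 in BMS753, 94.4 in ATRA and 94.9 in BMS961+BMS641. VitaminA was above all 3 ligand sections. Erbb3, a neuregulin receptor, had 271 and 59 counts, and Foxd3, an early crest factor, 71 and 19, while Sox10 was the other lower member.

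Endoderm genes were few and mixed. Hnf4a, a liver and gut nuclear receptor, had 135 cpm in VitaminA, 22.5 in BMS753, 111 in ATRA and 18.6 in BMS961+BMS641, so VitaminA and ATRA were high and the BMS sections were low. Afp, alpha-fetoprotein, was lower with 132 and 37 counts, and Cdx2, a hindgut factor, was higher with 54 and 156 and ratios of 1.51 and 1.98. In stratified epithelium none of 8 genes was called, Trp63 standing at 80.6 and 130.1 cpm.

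Several genes of pluripotent and germ cells were lower with BMS753. Of 13 pluripotency genes compared, 4 were lower and none was higher, beside 9.58% and 5.77% of all genes. Sall4, a zinc finger factor of stem cells, stood at 144 ppm in VitaminA, 24.1 in BMS753, 4.58 in ATRA and 7.72 in BMS961+BMS641. Its quadrants in VitaminA were uneven, from 107 to 214 cpm, and lay above those of BMS753, from 26.5 to 37.2. Dppa3 had 66.0 and 12.7 cpm, and Tfcp2l1, a naive-state factor, 74.3 and 19.0. Zfp42, a marker of naive cells, had 128 and 7 counts. Pou5f1, the core factor of the state, was not called, with 77 and 68 counts and ratios of -0.16 and 0.37.

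In the germ cell list, Tex14, of intercellular bridges, had 352 and 78.7 cpm, and Prdm1, which specifies germ cells, 116 and 31.5, both lower. Tfap2c, which acts beside Prdm1 there, was higher at 11.4 and 57.4 with ratios of 1.94 and 2.08. Proliferation genes held 1 higher and 2 lower member of 19. Cdk1, the mitotic kinase, was higher with 56 and 134 counts, whereas the kinetochore genes Cenpe and Cenpf were lower with 322 and 99 and 238 and 68. Mki67, the usual proliferation marker, had 113 and 36 counts and was past 2-fold on the deposited scale only, with ratios of -1.70 and -0.98.

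Genes of the Wnt pathway summed to 4081 cpm in VitaminA (quadrants 3895 to 4195) and 2275 in BMS753 (1809 to 2489). A gap of that size lay in Tcf7, Wnt3 and Rspo2 together, with Wnt3 at 436 and 34.7 cpm. Tcf7, a transcription factor of the pathway, stood at 4423 ppm in VitaminA, 1640 in BMS753, 1060 in ATRA and 2099 in BMS961+BMS641. It had 2228 and 995 cpm in VitaminA and BMS753, quadrants of 2008 to 2342 and 499 to 1254, and ratios of -1.74 and -1.32. As those of an abundant gene, its counts may be understated by ranks. Wnt3, a ligand, stood at 438 ppm in VitaminA, 28.4 in BMS753, 17.0 in ATRA and 12.5 in BMS961+BMS641. VitaminA was the only high section for Wnt3, which had 3161 counts (3052 to 3273) there and 150 (127 to 176) in BMS753, with ratios of -4.21 and -3.76.

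Rspo2, which strengthens Wnt signals, had 232 and 47.7 cpm, and Fzd7, a Wnt receptor, had 42 and 6 counts. Dkk1, a secreted Wnt inhibitor, was the higher member with 5 counts (1.62 to 11.7) in VitaminA and 68 (52.8 to 86.2) in BMS753, and ratios of 2.85 and 3.16. Axin2 and Lef1, which Wnt signals induce, were not called, with ratios of -0.47 and -0.16 and of 0.01 and 0.29. In all, 4 of 26 were lower and 1 was higher, beside 9.58% and 5.77% of all genes.

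In the Hedgehog list, Gli1 was lower and its companion targets were not. Gli1, a transcription factor that the pathway induces, stood at 168 ppm in VitaminA, 16.7 in BMS753, 17.8 in ATRA and 10.4 in BMS961+BMS641. Its counts were 1470 (1396 to 1547) and 133 (111 to 158), with ratios of -3.56 and -2.83. Ptch1, a receptor that the pathway also induces, had 2280 and 2281 counts and ratios of 0.43 and 0.59, and Hhip, an induced inhibitor, had 0.69 and 1.08. Dhh, a ligand, was lower with 85 and 12 counts.

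FGF genes split, with 2 higher and 3 lower of 16. Fgf2 had 126 cpm in VitaminA, 17.6 in BMS753, 18.5 in ATRA and 6.38 in BMS961+BMS641, and Fgf9, also a ligand, had 46.9 and 18.1 in the first pair. Spry1, a feedback inhibitor, was the other lower gene with 77 and 12 counts. Fgf18, a ligand, was higher with 26.7 in VitaminA, 111 in BMS753, 483 in ATRA and 26.3 in BMS961+BMS641, so ATRA stood above BMS753. Fgf17, of the midbrain and hindbrain boundary, was higher with 30 and 52 counts.

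Notch genes held 2 lower members of 15. Hey2, a Notch target, showed how far the scales can part. It stood at 232 ppm in VitaminA and 70.3 ppm in BMS753, but had 1442 and 28 counts, so its ratios were -2.02 and -4.89. Dll1, a Notch ligand, had 110 and 32 counts. In the BMP and TGF beta list, Bmp2 alone was called of 25, lower with 112 and 32 counts and ratios of -1.97 and -1.12.

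Chromatin genes were lower more often than higher. Of 24 Polycomb and DNA methylation genes, 6 were lower and none was higher, beside 9.58% and 5.77% of all genes. Eed, a core subunit of the complex that methylates histone H3, stood at 259 ppm in VitaminA, 3.65 in BMS753, 6.57 in ATRA and 5.41 in BMS961+BMS641, and in 92.2% of VitaminA spots against 4.48% of BMS753 spots. Suz12, of the same complex, had 67.8 and 36.8 cpm, while its catalytic subunit Ezh2 was not called, with 214 and 162 counts and ratios of -0.09 and 0.18.

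Dnmt1, the maintenance DNA methyltransferase, had 1166 counts (1100.0 to 1235) in VitaminA and 92 (74.2 to 113) in BMS753, with ratios of -3.42 and -3.01. Cbx2, a reader of the Polycomb mark, had 82.6 cpm in VitaminA, 9.73 in BMS753, 3.54 in ATRA and 81.2 in BMS961+BMS641. VitaminA and the pair were high and BMS753 and ATRA low. Rbbp4, a histone-binding subunit, and Bmi1, of the second Polycomb complex, were lower with 88 and 27 and 80 and 19 counts. The list's median ratio was -0.51 on the deposited scale and -0.30 on counts.

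Housekeeping complexes were uneven from subunit to subunit. Of 21 proteasome subunits compared, 5 were lower and 1 was higher, beside 9.58% and 5.77% of all genes. Psmd9, an assembly chaperone, had 2553 counts (2455 to 2654) in VitaminA and 24 (15.4 to 35.7) in BMS753. Psmd12, Psmd13 and Psmd2, of the regulatory cap, had 365 and 22, 242 and 37 and 153 and 20 counts, and Psmb2, of the core, 178 and 39. Psmb3, also of the core, was higher with 62 and 108. Psma5 and Psmb7 had 215 and 262 and 165 and 170 counts and were not called.

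Of 20 respiratory chain and ATP synthase genes, 3 were lower and 2 higher. Ndufa1, of complex I, had 212 cpm in VitaminA, 6.95 in BMS753, 6.47 in ATRA and 5.18 in BMS961+BMS641. Cox4i1, of complex IV, and Atp5g1, of the ATP synthase, were lower with 172 and 8 and 182 and 18 counts. Atp5h, of the ATP synthase, and Sdhd, of complex II, were higher with 9 and 286 and 10 and 64. Genes of the same complex thus stood on opposite sides, and the list medians were 0.49 on the deposited scale and -0.03 on counts.

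Hypoxia, stress and abundant housekeeping lists held few calls. Hif1a, the hypoxia factor, was lower at 68.1 and 24.1 cpm with ratios of -1.93 and -1.62, and Ldha, lactate dehydrogenase, had 55 and 15 counts, of 16 genes compared. Hspa1b, an inducible heat shock protein, was the called member of 14 stress genes, with 73 and 5 counts. Cfl1, an actin regulator, was the called member of 5 abundant genes, with 104 and 4. The counts behind most of these genes were low.

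**Figure D4:**
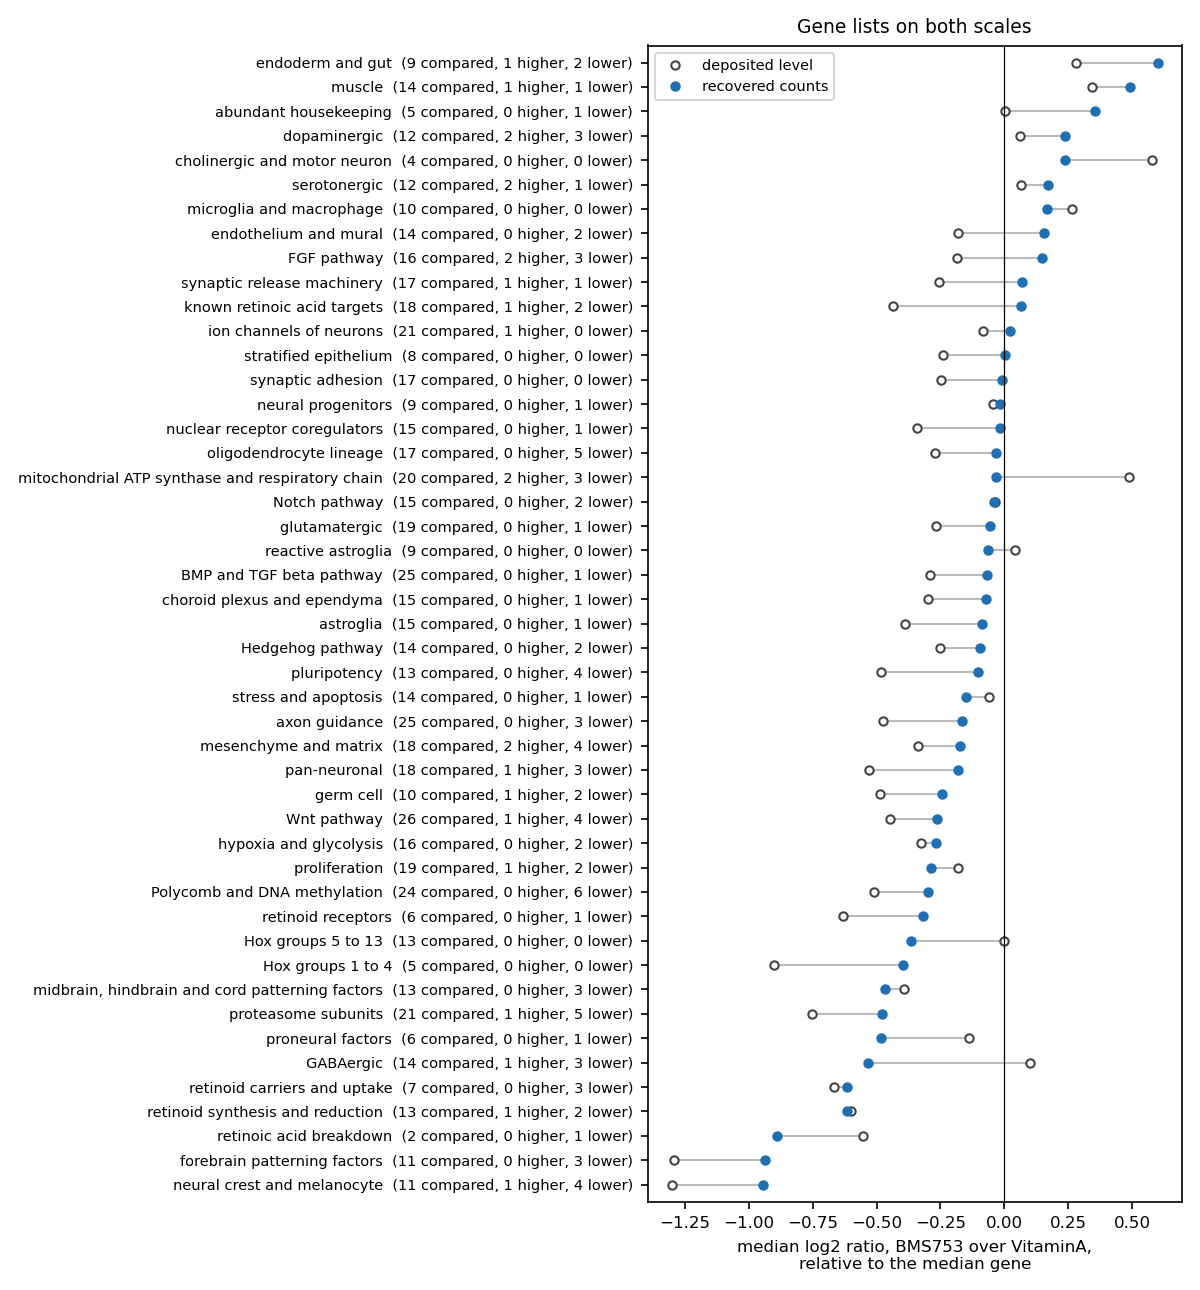
Median relative log2 ratio of BMS753 over VitaminA for each of the 47 gene lists, on the deposited scale (open points) and on recovered counts (filled points), with the line at 0 standing for the median of all 15676 genes. Labels give the genes compared and those higher or lower on both scales, and the neural crest and forebrain patterning lists stand lowest on both scales.

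The highest ratios belonged to genes of unrelated function, most of them with few counts in VitaminA. Ap1g2, an adaptor subunit of vesicle coats, stood at 4.86 ppm in VitaminA, 155 in BMS753, 3.34 in ATRA and 41.7 in BMS961+BMS641. Fah, the last enzyme of tyrosine breakdown, had 282 counts (250.0 to 317) in VitaminA and 1918 (1833 to 2006) in BMS753, and was found in 38.0% and 79.3% of spots. Mov10, an RNA helicase that restrains retroelements, had 19.8 cpm in VitaminA, 260.3 in BMS753, 17.8 in ATRA and 12.1 in BMS961+BMS641. For Fah and Mov10, BMS753 was the only high section.

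Rpa2, of the single-strand DNA binding complex, had 27 and 366 counts, and Hint2, a mitochondrial hydrolase, 23 and 216. Aktip, which acts at membranes and telomeres, had 75 and 580, and Trim52, of the tripartite motif family, 117 and 936. Chil6, a chitinase-like gene, had 16 and 309 counts, Adam29 53 and 742, Iqcc 9 and 159 and Ifitm1, an interferon-induced membrane protein, 7 and 150. Relative log2 ratios of these genes and Atp5h ran from 3.55 for Hint2 to 4.43 for Ap1g2 on the deposited scale, and from 3.33 for Fah to 4.75 for Atp5h on counts. Chil6 and Ifitm1 belong to families with near-identical copies, so their counts are uncertain.

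The lowest ratios were steeper and shared one pattern over the 4 sections. Mocs2, which makes the molybdenum cofactor, stood at 302 ppm in VitaminA, 1.24 in BMS753, 0.875 in ATRA and 0.993 in BMS961+BMS641. It was found in 93.5% of VitaminA spots and in 3.20%, 3.71% and 3.56% of spots of the others. Pgls, of the pentose phosphate pathway, was found in 93.5% of VitaminA spots and in 4.69%, 3.04% and 5.48%. Psmd9 gave 94.7% against 4.69%, 3.71% and 5.75%, in the same order of sections. In each of these the VitaminA section alone was high, so the difference from BMS753 rests on that single section.

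Tmem52b, a membrane protein gene, had 1798 and 8 counts, Tsga10ip 1329 and 14 and Mcrip1, a corepressor partner, 1478 and 15. Atp6v0b, of the proton pump of lysosomes, had 774 and 7, and Plpp2, a lipid phosphatase, 896 and 14. Cant1, a nucleotidase, had 392 cpm in VitaminA and 14.4 in BMS753, and Foxo4, a forkhead factor, 144 and 3.94. Ly6c2, a surface protein of myeloid cells with near-identical relatives, had 508 and 6 counts and is uncertain. Relative log2 ratios of these, Mocs2, Pgls, Psmd9 and Eed ran from -7.38 for Mocs2 to -5.54 for Foxo4 on the deposited scale, and from -6.60 for Tmem52b to -4.83 for Cant1 on counts.

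To show which section a difference rests on, each section was set against the 3 others in the 15362 genes listed in all 4 that could be compared. Each ratio was taken relative to the median gene of its pair of sections, which for BMS753 over ATRA was 0.70 on the deposited scale and 0.65 on counts, and over BMS961+BMS641 0.63 and 0.61. On these relative ratios BMS753 stood at least 2-fold above every other section in 344 genes (2.24%) and below in 46 (0.299%), on both scales. VitaminA stood above in 798 genes (5.19%) and below in 36 (0.234%). Without centring, BMS753 stood above in 875 genes and below in 4, and VitaminA above in 896 and below in 24, so the genes below rest largely on the centring. These comparisons share the VitaminA and BMS753 sections with the one above, so they are no separate evidence.

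The genes that most set BMS753 above the rest were Aktip, Mov10, Hint2, Iqcc, Adam29 and Rhbdd2, a rhomboid family gene. Rhbdd2 was found in 35.2% of BMS753 spots and in 7.79%, 1.85% and 7.12% of VitaminA, ATRA and BMS961+BMS641 spots. Those that most set it below, on relative ratios, were Zp1, Taok1, Unkl, Nit2, Sgcb and C1s1. Taok1, a kinase of microtubule dynamics, had 354 cpm in VitaminA, 63.9 in BMS753, 96.2 in ATRA and 104 in BMS961+BMS641, so its plain cpm in BMS753 was the lowest but under 2-fold from ATRA and the pair. Zp1, an egg coat gene, had 157, 31.5, 55.6 and 88.5 in that order, with BMS753 quadrants from 3.07 to 59.7. C1s1, a complement protease, had 218 and 14 counts in VitaminA and BMS753 and has a close paralog, so it is uncertain.

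VitaminA stood below the rest in Cmklr1, Ogt, Ces5a, Klhl33, Vnn3 and Zmym5. Cmklr1, a receptor for the retinoid-responsive protein chemerin, had 30.6 cpm in VitaminA, 169 in BMS753, 380.2 in ATRA and 401 in BMS961+BMS641. Ogt, which adds N-acetylglucosamine to proteins, had 30.2, 97.7, 372 and 132 in that order. BMS753 was the nearest to VitaminA of the 3 ligand sections for both genes. Sgcb, Unkl and Nit2 had VitaminA and BMS753 counts of 775 and 109, 595 and 89 and 160 and 8.

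**Figure D5:**
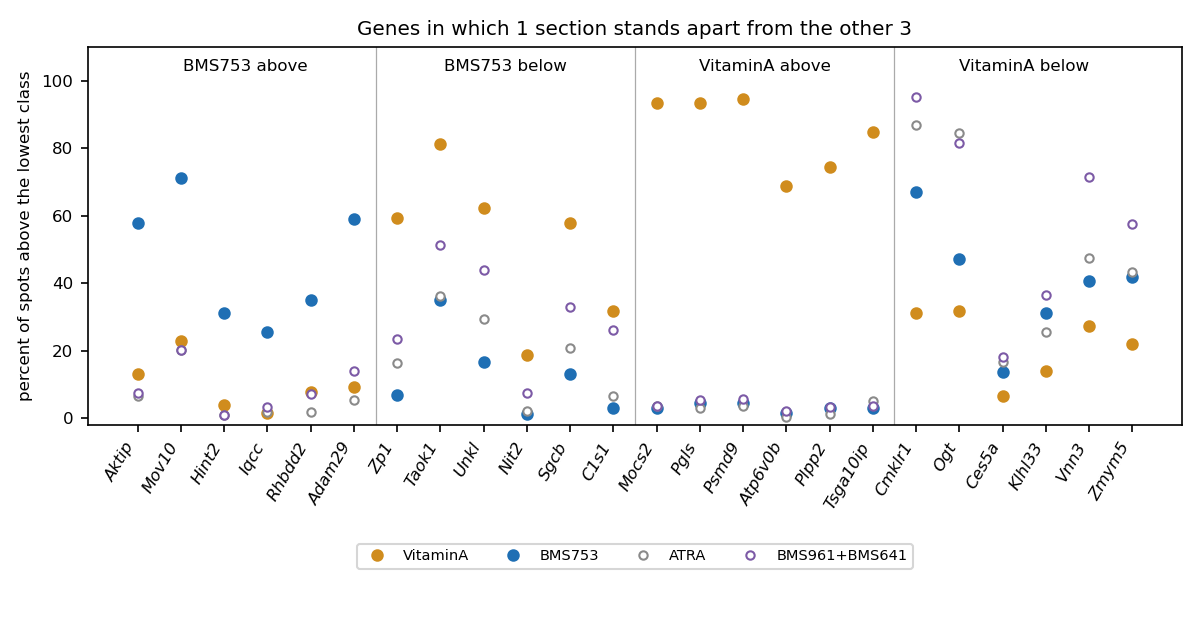
Percent of spots above the lowest class of values for 24 genes in the 4 sections, grouped by the section that stands apart (BMS753 above, BMS753 below, VitaminA above, VitaminA below the others). Mocs2, Pgls and Psmd9 lie above 90% in VitaminA and under 10% in the other 3 sections.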

How the data were processed

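Spatial transcriptomes of organoid sections were used, 1 section per group, grouped by the treatment in the labels. The authors deposited quantile-normalised signal values for each gene in each spot, in which a spot's counts had been replaced by shared values. The submitters' processing notes name the genome build mm9. The sources used here do not give the aligner, the kind of count or any choice of spots. All deposited spots were used. A gene's level was its mean signal over spots, as ppm of the sum over genes, and the log2 ratio used a pseudocount of 1 ppm. Recovered counts were tie ranks within spots. The sorted values of a spot, divided by the smallest, were whole to a tolerance of 1e-06. At each rank of the sorted values, that whole number was compared with the sum over spots of the sorted recovered counts. They were equal for 98.6% of ranks in VitaminA and 99.1% in BMS753, but for 75.1% in ATRA and 46.8% in BMS961+BMS641. Values of ATRA and BMS961+BMS641 are therefore less exact. The recovered scale and the rule that calls need both scales were chosen after the data were seen.

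The members and the 47 gene lists (827 genes) were chosen with earlier results of these data known. Named genes were a fixed set of retinoid and marker genes, the 12 highest and 12 lowest ratios, up to 4 members of each list past 2-fold, otherwise its 2 highest, and the 6 genes that most set a section apart each way. At least 20 ppm, 5% of spots and quadrants without overlap were needed, except for the fixed set and the 2 highest of a list. Predicted, ribosomal and mitochondrially encoded genes were left out. Other called members of a list, and uncalled genes given beside them, were named after their values were seen. A few genes that the rule names are not reported here. Symbols were matched to RefSeq for 22097 genes, with 90 more by synonym and 31 unmatched. Alternatives changed the pseudocount, filter, centring, scaling and spots. Steps were tested on simulated data. The software was numpy 2.4.6 and scipy 1.17.1 with pandas 2.3.3 under Python 3.11.15, and matplotlib 3.10.9 for figures.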

Additional observations from a re-analysis of the deposited data

How the results depend on the processing

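On the deposited scale, 1421 genes were at least 2-fold higher and 2326 at least 2-fold lower. A pseudocount of 5 ppm gave 597 higher, a filter of at least 20 ppm gave 607 higher and 1485 lower, and using the share of spots with the gene in place of its level gave 1513 lower. Without centring on the median gene, 2778 genes were higher and 1572 lower, so the balance of higher and lower turned. On recovered counts, an alternative added after the data were seen, BMS753 stood above the other sections in 573 genes (378 on the deposited scale) and below in 89 (201), and VitaminA stood below in 80 (233). Without centring, also added then, the deposited scale gave 1030, 23 and 104 in that order. The cause of these shifts was not tested, except that the 20 ppm filter compares fewer genes. The other settings gave counts within 1.5 times of those values. Over 47 list medians and 13 alternatives, 429 values moved by less than the spread between quadrants and 181 by more, and for named genes 1578 and 374, and none of these medians and named genes past 2-fold changed sign, while 213 other genes did so on counts. No paired analysis was possible because each group has 1 section. Depth limits single genes of few counts, and a section of one mold cannot show the spread between organoids.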
